A study of Mus musculus with 3 samples.

Results

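The gene set described here is made of 40 genes of sebum lipid and sterol synthesis, chosen by symbol from a fixed list. All 40 symbols were found once each among the 33696 genes of the deposited count matrices. They were read in sebocytes, the fat-producing cells of the skin's sebaceous glands, in other cell classes named by markers, and in 3 single-cell libraries. The mice were female C57BL/6, 9 weeks old, and their back skin had been depilated with wax strips. Cont is a vehicle control, CIA is a model of hair loss caused by chemotherapy, and CIA+VFX is that model given venlafaxine, an antidepressant that blocks serotonin and noradrenaline reuptake. The chemotherapy drug, the doses and the times are not given in the sources used here. Skin from several mice was pooled into 1 library per group, so differences between groups have no replicate check. An effect of treatment and a difference between pools cannot be told apart. Intervals of single genes below cover counting error only, and those of cell shares the sampling of cells. Those of medians over a list show the spread between its genes. None covers a difference between mice or pools, and UMIs from a single deep cell are not independent of each other.

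A mature sebocyte fills with lipid, bursts and releases its content as sebum. Acetyl-CoA made by Acly is carboxylated by Acaca and built into palmitate by Fasn. Elovl enzymes lengthen the chain and Scd and Fads enzymes add double bonds. Far enzymes reduce fatty acyl chains to fatty alcohols, Awat1 and Awat2 join alcohols and acyl chains into waxes, Dgat enzymes make triglyceride, and Soat1 makes cholesteryl ester. The mevalonate and sterol pathway runs from Hmgcs1 through squalene, made by Fdft1, to cholesterol. The transcription factors encoded by Srebf1 and Srebf2 drive fatty acid and sterol genes, the Insig1 protein holds them in check when sterols are plentiful, and Pparg is a nuclear receptor that is needed for sebocyte differentiation.

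The promoters of the pathway are shown first because sterol genes are known for sites that bind the sterol-regulated factors and the neighbouring factor NF-Y. RefSeq promoters on build GRCm38.p6, each running from 250 bases before to 50 bases after a gene's start, were used for 29 of the 40 members. Any member promoter on 1 chromosome was left out before this count, while the count over all promoters kept that chromosome. A member without a promoter here may therefore still have one in RefSeq. The expression files use build GRCm39, and no coordinate was carried between builds. The motif TCACNCCAC, a sterol regulatory element, was searched on both strands and matched 1 member, Hmgcs1; it was found in 1.24% of all 32851 promoters. The pentamer CCAAT, read on the other strand as ATTGG and bound by NF-Y, was found at 1 or more promoters of 24 of the 29 members and of 9 of the 9 sterol synthesis members. Over single promoters it was in 71.1% of those of the members, in 81.8% of those of the sterol synthesis members and in 37.4% of all promoters. The direct repeat of AGGTCA with a spacer of 1 base, a form of the site bound by Pparg, was not in these windows of any member. In the stretches below, printed on the strand of the gene, capitals mark CCAAT or ATTGG and, in Hmgcs1 alone, also the sterol element TCACCCCAC. Hmgcs1 has its element 137 bases before the start. The other stretches are examples from sterol enzymes, and from Fasn and Elovl5, all with a CCAAT or ATTGG. Promoters with neither, such as those of Acaca, Elovl6, Far2 and Mgst1, are not printed, nor are those of Lss, Sc5d and Dhcr7.
Hmgcs1, chr13:119690101-119690325, plus strand: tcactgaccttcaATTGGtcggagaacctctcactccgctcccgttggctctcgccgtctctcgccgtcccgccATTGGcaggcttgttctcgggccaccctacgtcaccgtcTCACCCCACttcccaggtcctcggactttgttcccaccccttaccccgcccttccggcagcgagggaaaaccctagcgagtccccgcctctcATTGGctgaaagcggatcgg
Mvd, chr8:122443430-122443497, minus strand: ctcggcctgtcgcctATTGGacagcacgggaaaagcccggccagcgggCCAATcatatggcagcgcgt
Idi1, chr13:8885546-8885605, plus strand: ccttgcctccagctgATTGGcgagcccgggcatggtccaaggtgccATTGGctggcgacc
Cyp51, chr5:4104707-4104741, minus strand: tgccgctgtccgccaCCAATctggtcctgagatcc
Msmo1, chr8:64733614-64733753, minus strand: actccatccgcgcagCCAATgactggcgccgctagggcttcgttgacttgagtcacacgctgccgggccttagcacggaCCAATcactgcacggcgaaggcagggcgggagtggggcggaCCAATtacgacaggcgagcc
Nsdhl, chrX:72918397-72918520, plus strand: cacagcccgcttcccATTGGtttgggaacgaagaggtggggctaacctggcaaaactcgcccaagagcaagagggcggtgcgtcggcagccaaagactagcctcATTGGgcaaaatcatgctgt
Fasn, chr11:120824587-120824652, minus strand: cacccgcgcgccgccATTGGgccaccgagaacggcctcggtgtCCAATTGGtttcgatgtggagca
Elovl5, chr9:77917279-77917364, plus strand: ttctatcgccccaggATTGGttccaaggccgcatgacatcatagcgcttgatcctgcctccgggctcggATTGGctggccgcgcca
In Fasn a CCAAT and an ATTGG overlap. A match says only that the letters are there.

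The libraries held 14529 barcodes in Cont, 17675 in CIA and 18987 in CIA+VFX, with 143164803, 130557879 and 155210692 UMIs (unique molecular identifiers, each a counted RNA molecule). After filters on genes, mitochondrial reads and doublets, 11904, 15401 and 15372 cells were kept. Cont and CIA shared 79 cell barcodes, Cont and CIA+VFX shared 75, and CIA and CIA+VFX shared 110. Cells were clustered with the 40 members left out of the gene list, and 1 cluster was named sebocyte-like from markers that are not members. It held 95 cells in Cont, 167 in CIA and 368 in CIA+VFX. Their markers Cers4, Fa2h, Apoc1, Sdr16c6 and Sdr16c5 were at 204.5 to 2873 counts per 1000000 UMIs (CPM) in every library. Gldc, Muc1 and Aldh3b3 were at or near 0, so the name rests on 9 of 12 markers. The median cell had 10938 UMIs in Cont, 14132 in CIA and 4056 in CIA+VFX. Summed markers of other cell types in these cells were highest for basal keratinocytes, at 2751 CPM in Cont, 3195 in CIA and 2785 in CIA+VFX. Upper follicle keratinocyte markers were at 1379, 1991 and 1962 CPM. Of 9 adipocyte markers 4, 7 and 5 were above 0, summing to 27.9, 41.9 and 49.8 CPM, and Lep and Pck1 were at 0 in all 3 libraries. Their part in the results was not tested. The levels below are CPM of a class, that is, the UMIs of a gene summed over the cells of 1 class in 1 library, scaled to the sum of all genes' UMIs in those cells.

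Sebocyte-like cells gave a larger share of the members' UMIs than of all UMIs. They gave 1.14% of all UMIs in Cont, 2.70% in CIA and 4.45% in CIA+VFX, but 16.8%, 36.2% and 46.4% of the UMIs of the 40 members. Of 31 classes with at least 50 cells in every library, sebocyte-like cells had the highest mean level for 31 of the 40 members. Cluster 44, unnamed keratinocytes, had 45 Cont cells and was not among the 31, so the ranks and folds do not cover it. Its leading genes included the member Acsbg1, and Akr1c18 and Aldh3a1, which were also among those of sebocyte-like sub-cluster 1, described below. Over 9369 genes with at least 50 UMIs in sebocyte-like cells, 13.8% were highest there. For 27 members the lowest of the 3 sebocyte-like values lay above every other class in every library, against 6.60% of all such genes. By role, sebocyte-like cells came first by mean level for 4 of 4 regulators and 8 of 13 fatty acid genes. They also did for 8 of 11 wax, glyceride and droplet genes and 11 of 12 sterol synthesis genes. The members were left out of the clustering, but genes that vary with them were not.

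**Figure D1:**
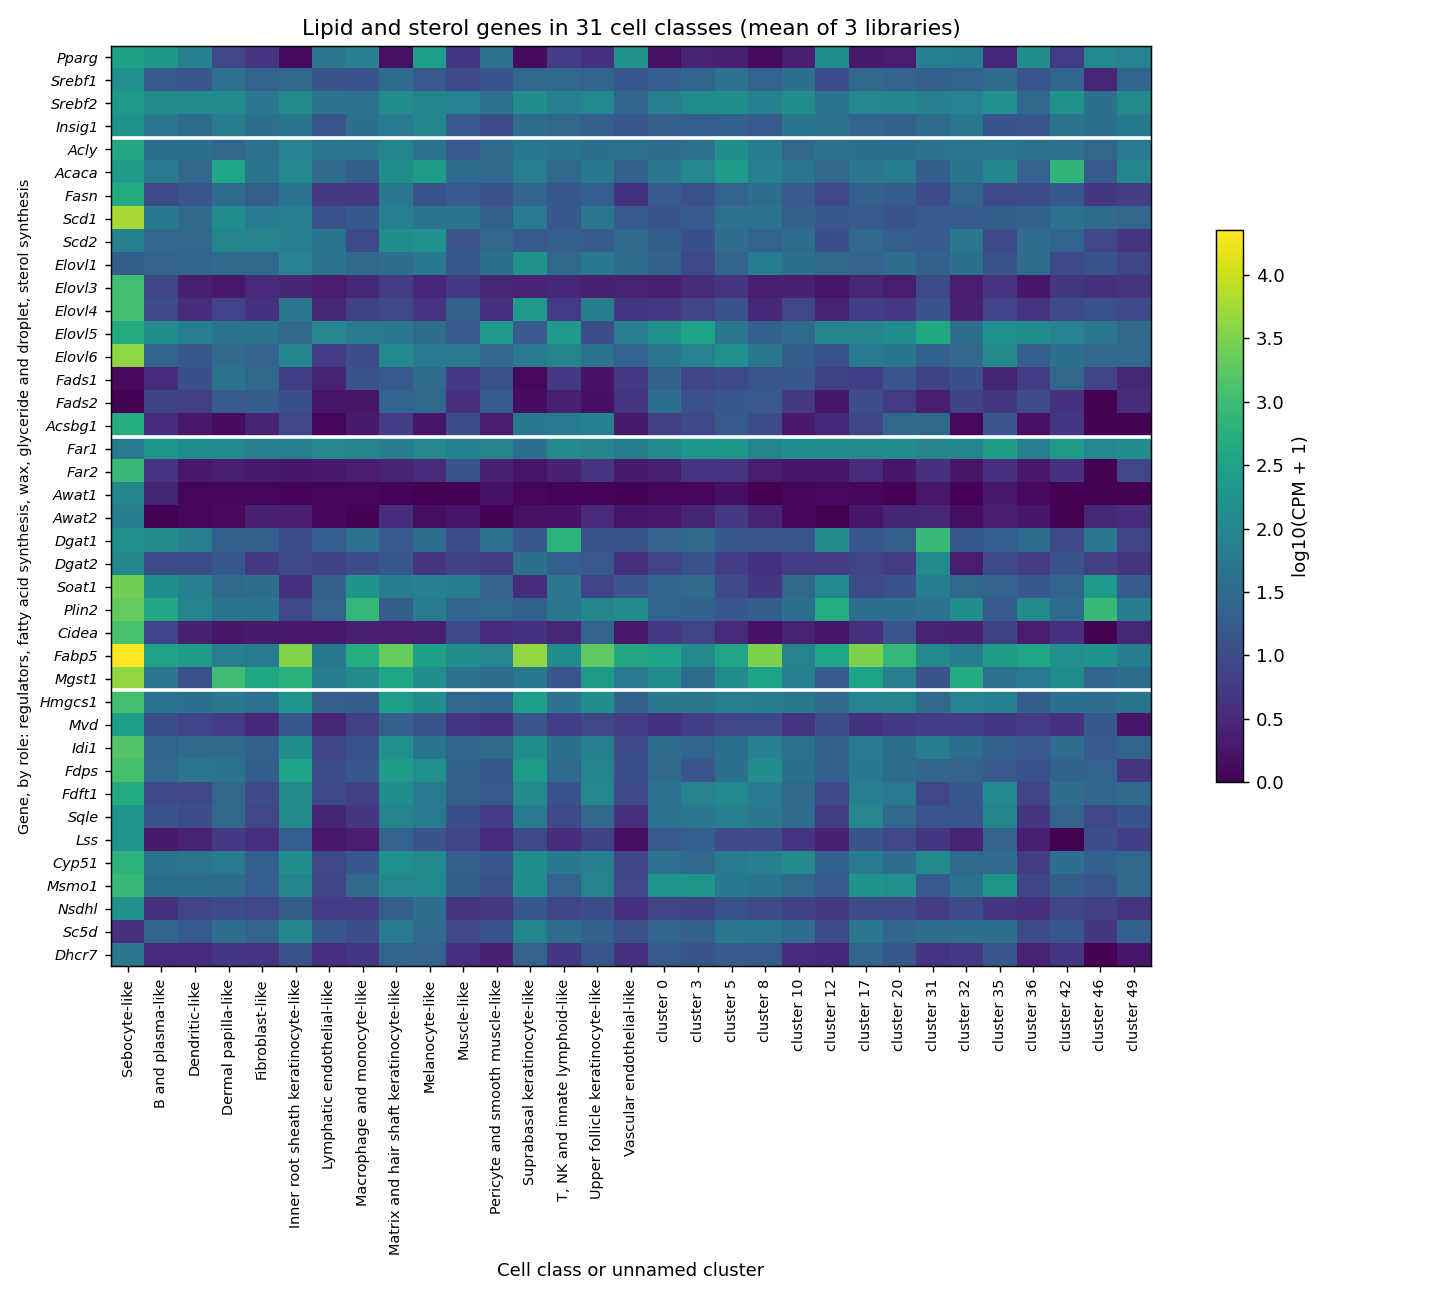
Heat map of the 40 members (rows, by role, white lines between roles) in the 31 classes and unnamed clusters compared (columns); colour is log10(CPM + 1) of the mean over the 3 libraries. Scd1, Elovl3, Far2, Cidea and Awat1 stand out in the sebocyte-like column, and Fads1, Fads2 and Sc5d are dark there.

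Genes of wax and long-chain lipid were among those far above other classes. Each fold here is given over the next class by mean level, followed by that of the lowest sebocyte-like library over the highest value of any other class in any library. Elovl3, an elongase of saturated and monounsaturated chains, had a mean of 1084 CPM in sebocyte-like cells, 126-fold above the next class and 19.1-fold by the lowest library. The 2 folds were 71.1 and 21.3 for the fatty acyl reductase Far2, 54.4 and 44.02 for the lipid droplet protein Cidea, 53.0 and 7.43 for the wax synthase Awat1, and 15.9 and 8.19 for Awat2. Scd1, which makes monounsaturated fatty acids, was 47.3-fold above the dermal papilla-like cells that came second, and 33.8-fold by the lowest library. Elovl6, which lengthens palmitate, had folds of 27.1 and 16.3. Among sterol genes the folds were 12.4 and 9.77 for the decarboxylase Mvd, 9.84 and 6.13 for the isomerase Idi1 and 8.15 and 4.56 for lanosterol synthase, Lss. Soat1 had folds of 12.2 and 8.26.

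In 9 members another class was higher. Fads1 and Fads2, the desaturases of the polyunsaturated pathway, had 3 UMIs and 1 UMI in all 630 sebocyte-like cells. Fads1 reached 45.7 CPM in dermal papilla-like cells and Fads2 reached 35.9 CPM in cluster 0, an unnamed keratinocyte cluster led by Kcnb2 and Gnmt. Sc5d, a late sterol desaturase, had 3, 11 and 18 UMIs in sebocyte-like cells, at 2.09 to 3.60 CPM, and ranked last of the 31 classes. It had a mean of 99.2 CPM in inner root sheath keratinocyte-like cells. Sc5d was thus the only sterol synthesis member of the 12 for which sebocyte-like cells did not come first.
Dgat1 and Dgat2, the acyltransferases that make triglyceride, were highest in cluster 31, an unnamed cluster led by Il5, Il22 and Il13, at 858 and 115 CPM. Scd2 was highest in melanocyte-like cells and Elovl1 in suprabasal keratinocyte-like cells. Acaca was highest in cluster 42, at 727 CPM. Far1, the sister reductase of Far2, ranked 30 of 31 in sebocyte-like cells, against 249 CPM in cluster 35. Pparg was close between sebocyte-like cells, at a mean of 285 CPM, and melanocyte-like cells, at 259 CPM. The first rank by mean rested on Cont, with sebocyte-like cells at 426 CPM in Cont, 210 in CIA and 220 in CIA+VFX. Melanocyte-like cells were at 257 to 262 CPM, above sebocyte-like cells in CIA and CIA+VFX.

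The next comparison is between libraries within sebocyte-like cells. A member counts as measured with at least 50 UMIs in both libraries together, and as higher or lower when its CPM differ at least 1.5-fold. All but Fads1, Fads2 and Sc5d, that is 37 members, were measured. CIA against Cont had 9 members higher and 5 lower; of all 7493 genes measured, 12.1% were higher and 17% lower. CIA+VFX against CIA had 6 members higher and 0 lower, against 4.28% and 4.24% of 8949 genes. CIA+VFX against Cont had 15 higher and 6 lower, against 10.8% and 17.5% of 8588 genes. With 1 library a group there is no test of these counts, and the 3 comparisons share libraries. Dividing the UMIs by TMM factors in place of totals shifts all log2 ratios, by 0.15 in CIA against Cont, 0.06 in CIA+VFX against CIA and 0.21 in CIA+VFX against Cont. With TMM the count of members lower in CIA+VFX against Cont was 3 in place of 6.

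**Figure D2:**
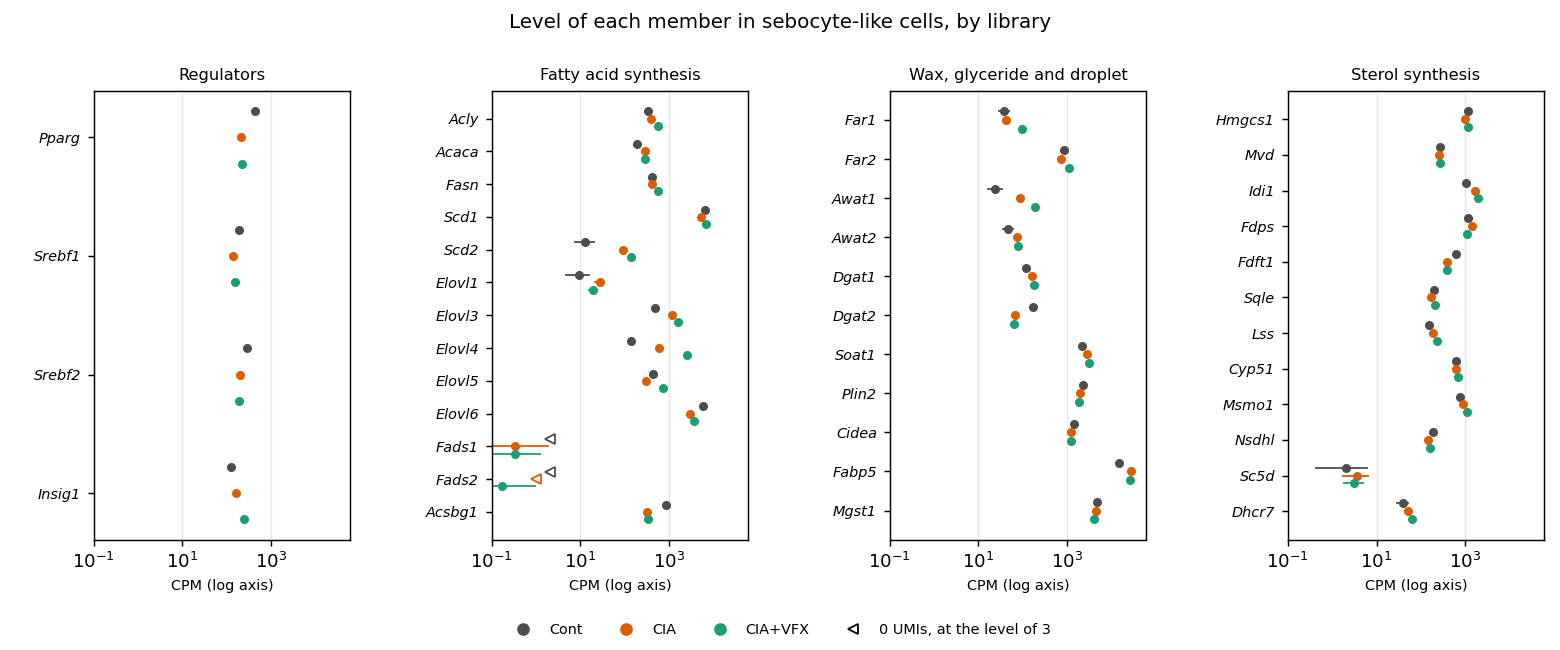
Level of each member in sebocyte-like cells in Cont (grey), CIA (orange) and CIA+VFX (green), in 4 panels by role; the x axis is CPM on a log scale and bars are exact Poisson 95% intervals of the count. Elovl4, Elovl3, Awat1 and Scd2 run from lowest in Cont to highest in CIA+VFX, while Pparg, Acsbg1, Dgat2 and Elovl6 are highest in Cont.

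Among fatty acid genes, the elongases Elovl4 and Elovl3 were higher in both chemotherapy libraries than in Cont. Elovl4, which makes very long chains, was at 134 CPM in Cont, 571 in CIA and 2508 in CIA+VFX. Its log2 ratio was 2.09 (95% interval 1.87 to 2.31) in CIA against Cont and 2.14 (2.06 to 2.21) in CIA+VFX against CIA. These sums rest on few cells: 1 of the 95 Cont cells held 61.7% of the Elovl4 UMIs of Cont, and 1 of the 368 CIA+VFX cells held 42.3% of those of CIA+VFX.
Elovl3 was at 480, 1167 and 1604 CPM, a log2 ratio of 1.28 (1.16 to 1.401) in CIA against Cont and 0.46 (0.40 to 0.52) in CIA+VFX against CIA. Scd2, a sister of Scd1, was at 12.5, 92.4 and 136 CPM; in Cont 17 of its 18 UMIs came from 1 cell. Elovl1, an elongase of saturated chains, was at 9.06, 27.2 and 18.8 CPM on 13, 83 and 110 UMIs.

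Elovl6 went the other way, at 5781 CPM in Cont, 2852 in CIA and 3648 in CIA+VFX. Its log2 ratio in CIA against Cont was -1.02 (-1.06 to -0.98). Acsbg1, an acyl-CoA synthetase for long chains, was at 834, 306 and 326 CPM, a log2 ratio of -1.45 (-1.57 to -1.32) in CIA against Cont. Both chemotherapy libraries were thus lower than Cont for these 2 genes, and CIA and CIA+VFX were less than 1.5-fold apart. Elovl5, the elongase of polyunsaturated chains whose promoter is printed above, was at 423, 302 and 722 CPM. It was higher in CIA+VFX than in CIA by 1.26 log2 (1.15 to 1.36). Acaca, the carboxylase, was at 187, 289 and 278 CPM. Scd1 was at 6394, 5208 and 6666 CPM, and Fasn at 407, 405 and 558, with every ratio under 1.5-fold. Acly was at 335, 385 and 565 CPM and passed 1.5-fold only in CIA+VFX against Cont. The median log2 ratio of the 11 measured fatty acid genes was 0.20 (-1.02 to 2.09) in CIA against Cont and 0.46 (-0.05 to 1.26) in CIA+VFX against CIA, with all genes at a median of -0.088 and -0.028.

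Among wax, glyceride and droplet genes, Awat1 was at 23.7 CPM in Cont, 84.9 in CIA and 183 in CIA+VFX, from 34, 259 and 1073 UMIs. Its log2 ratio was 1.84 (1.32 to 2.40) in CIA against Cont and 1.11 (0.91 to 1.31) in CIA+VFX against CIA. The other wax synthase, Awat2, was at 46.7, 74.4 and 79.4 CPM. Far1 was at 37.6, 42.6 and 94.2 CPM and Far2 at 860, 734 and 1111, so both reductases were at least 1.5-fold higher in CIA+VFX than in CIA.
Dgat2 was lower in both chemotherapy libraries, at 167, 66.2 and 63.3 CPM, with a log2 ratio of -1.34 (-1.61 to -1.06) in CIA against Cont. Dgat1 was at 117, 163 and 177 CPM and was higher in CIA+VFX than in Cont by 0.60 log2. The fatty acid carrier Fabp5 was at 14500 CPM in Cont, 27057 in CIA and 26025 in CIA+VFX. Its log2 ratio in CIA against Cont was 0.90 (0.88 to 0.92).
The microsomal transferase Mgst1 was at 4528, 4349 and 4029 CPM and Soat1 at 2175, 2763 and 3111. The droplet proteins were level across libraries to within 1.5-fold: Plin2 was at 2255, 1938 and 1792 CPM, and Cidea at 1383, 1181 and 1231. The median over the 11 genes was 0.18 (-0.23 to 0.90) in CIA against Cont and 0.09 (-0.11 to 1.11) in CIA+VFX against CIA.

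Of the sterol synthesis genes 2 of 11 measured passed 1.5-fold in CIA against Cont in sebocyte-like cells, 1 in each direction. Their median log2 ratio was -0.038 (-0.42 to 0.43) in CIA against Cont and 0.18 (0.04 to 0.30) in CIA+VFX against CIA, over 11 measured genes. Idi1 was the 1 gene at least 1.5-fold higher in CIA, at 1044 CPM in Cont, 1676 in CIA and 1899 in CIA+VFX, a log2 ratio of 0.68 (0.60 to 0.77) in CIA against Cont. Fdft1, squalene synthase, was the 1 lower gene, at 611, 382 and 393 CPM, a log2 ratio of -0.68 (-0.80 to -0.55).
Hmgcs1 was at 1142, 983.8 and 1125 CPM and Fdps, farnesyl diphosphate synthase, at 1169, 1389 and 1096. Lss, at 150, 188 and 229 CPM, and Dhcr7, the last reductase, at 39.0, 52.4 and 62.6 CPM, passed 1.5-fold only in CIA+VFX against Cont. In CIA+VFX against CIA no sterol gene passed it in either direction. Mvd, Sqle, Cyp51, Msmo1 and Nsdhl lay within 1.5-fold in all 3 comparisons, the widest being Msmo1, at 0.53 log2 in CIA+VFX against Cont.

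Of the regulators, Pparg was at 426 CPM in Cont, 210 in CIA and 220 in CIA+VFX, with 612, 640 and 1289 UMIs. Its log2 ratio was -1.02 (-1.19 to -0.86) in CIA against Cont and 0.07 (-0.07 to 0.21) in CIA+VFX against CIA. Srebf2 was at 282, 195 and 186 CPM, Srebf1 at 185, 141 and 155, and Insig1 at 123, 156 and 241. Pparg, Srebf1 and Srebf2 were thus highest in Cont and Insig1 highest in CIA+VFX.

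Sebocyte-like cells were not 1 state, and the mix of states differed between the libraries. Clustering them again, with the members left out, gave 6 sub-clusters. Sub-cluster 1, led by Krt15 and Aldh3a1, held 40% of the Cont cells, 21.0% of CIA and 16.8% of CIA+VFX. Sub-cluster 2, led by Carns1 and with the cell cycle genes Cdca3 and Birc5, held 24.2%, 19.8% and 19.0%. Sub-cluster 6, led by Cyp17a1 and Mid1ip1, held 4 of 95, 28 of 167 and 40 of 368 cells. Sub-cluster 3 had a median of 1026 UMIs per cell. Sub-cluster 4, with 53 of its 92 cells from CIA, had a median mitochondrial share of 10.2% and the nuclear RNA Malat1 at 22674 CPM, against 6187 in sub-cluster 1. Without sub-cluster 4, CIA against Cont had 7 members lower in place of 5, and CIA+VFX against CIA had 1 in place of 0. Without sub-clusters 3, 4 and 5 it had 1 higher and 2 lower in place of 6 and 0.

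Sub-cluster 5 came almost wholly from 1 library and held the highest level of 20 of the 37 measured members, 54.1%. Of the 9369 genes with at least 50 UMIs in sebocyte-like cells, 15.6% were highest there. It had 0 of the 95 Cont cells, which by a limit of 3 counts allows a share of up to 3.16%, 1 of 167 CIA cells and 85 of 368 CIA+VFX cells, 23.1% (exact binomial 18.9 to 27.7). Outside the members it was led by Ly6g6c, Pctp, Cyp4f39 and Sult2b1, a sulfotransferase of sterols, and also by Pnpla5, a lipase. Cyp4f39 and Pnpla5 are both among the sebocyte markers used. With nearly all of its cells from CIA+VFX, a cell state and a feature of that library cannot be told apart. Its median cell had 2066 UMIs, against 22244 in sub-cluster 1, and its Malat1 was at 1711 CPM. Over the 3 libraries its Elovl4 was at 15426 CPM against 1836 in sub-cluster 6, the next highest, its Elovl3 at 5980 against 2273 and its Awat1 at 1047 against 195. Far1 was at 448 CPM there and 115 or less elsewhere. Pparg, at 61.3 CPM, and Srebf2, at 84.0 CPM, were lowest in it. Fasn, Scd1, Cidea, Dgat1 and Insig1 were also highest in it, while Mvd, Idi1, Fdps, Lss and Cyp51 were highest in sub-cluster 6. Some of these orders were near ties: sub-cluster 5 was 1.04-fold above sub-cluster 6 for Elovl6 and for Sqle, and sub-cluster 6 was 1.01-fold above sub-cluster 5 for Lss.

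**Figure D3:**
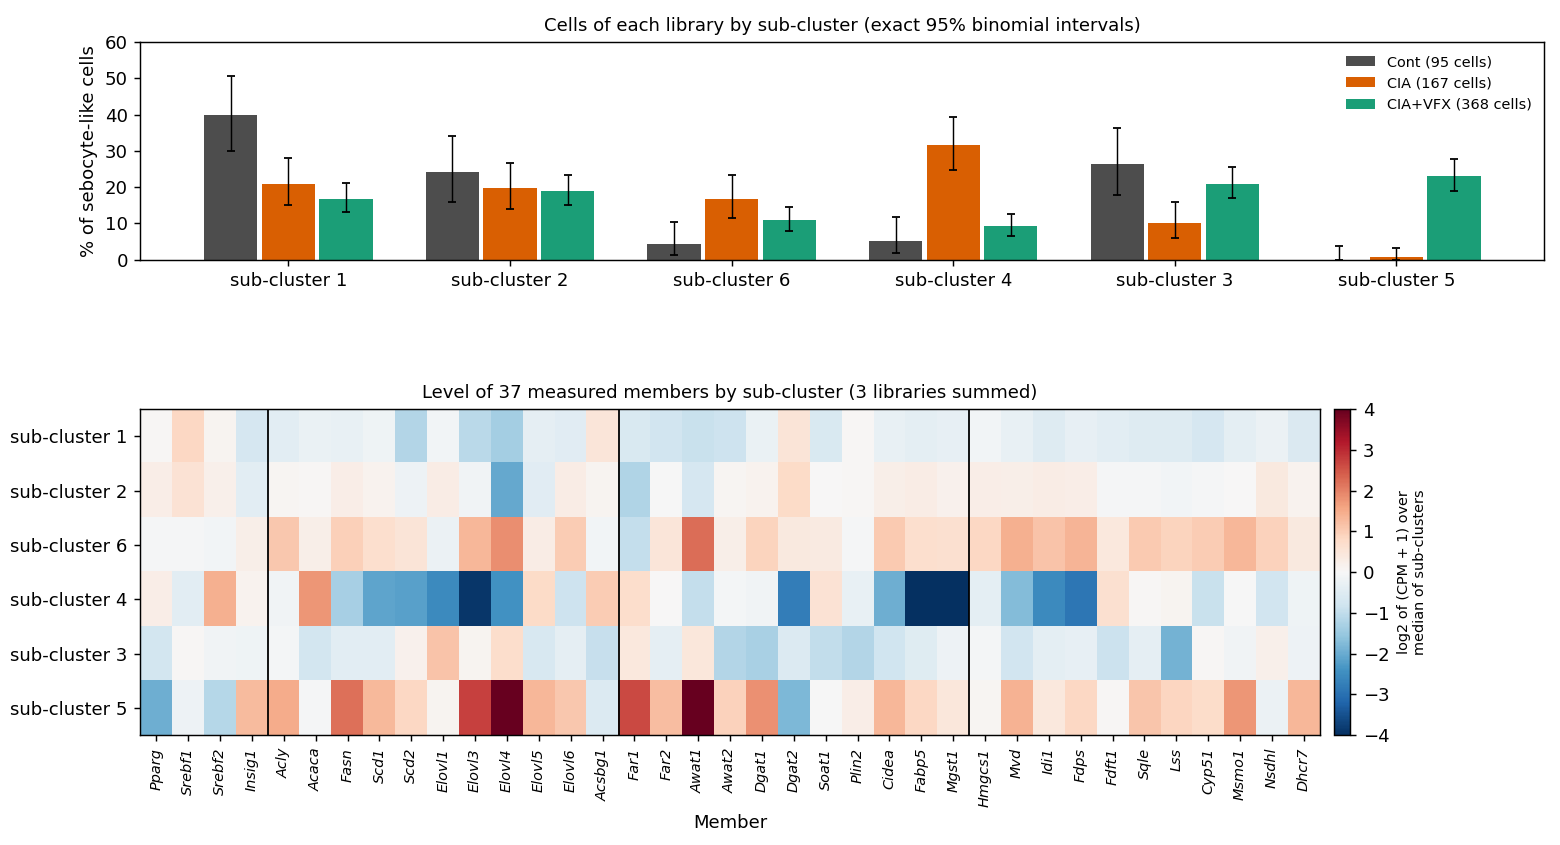
Top, share of each library's sebocyte-like cells in each sub-cluster, in percent, with exact 95% binomial intervals. Bottom, level of 37 measured members by sub-cluster with the libraries summed, as log2 of (CPM + 1) over the median of the 6 sub-clusters; sub-cluster 5, with 85 of its 86 cells from CIA+VFX, is highest for Elovl4, Awat1, Elovl3 and Far1 and lowest for Pparg.

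A single barcode gave about as many UMIs as the rest of sub-cluster 5. The deepest CIA+VFX cell had 379541 UMIs and the other 84 cells together 361847. Elovl4 was at 16388 CPM in that barcode and 14600 in the other 84, Elovl3 at 4632 and 7354, Awat1 at 912 and 1210, Far1 at 366 and 544, and Pparg at 58.0 and 63.6. Other genes were higher in the single barcode, with Elovl6 at 7712 and 4618 CPM and Soat1 at 3697 and 2344. Malat1 was at 461 CPM in it and 3059 in the other 84. Elovl4 was counted in 84 of those 84 cells and Awat1 in 66. In the 283 CIA+VFX sebocyte-like cells outside sub-cluster 5 Elovl4 was at 624 CPM, Awat1 at 56.5 and Far1 at 42.2. Without the deepest barcode, 19 of the 37 members were highest in sub-cluster 5, against 15.7% of all genes. Elovl6 and Fabp5 were then highest in sub-cluster 6, and Lss in sub-cluster 5.
Of the CIA+VFX sebocyte-like UMIs, sub-cluster 5 gave 12.7% over all genes, 78.3% for Elovl4, 73.1% for Awat1, 60.9% for Far1 and 47.0% for Elovl3.

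Without sub-cluster 5, CIA+VFX against CIA had 1 member higher and 1 lower in place of 6 and 0. Elovl4 then had a log2 ratio of 0.18, Awat1 -0.59, Far1 -0.018, Far2 0.38 and Insig1 0.35, all in CIA+VFX against CIA. Elovl5 stayed higher, at 1.05. Without the deepest cell of each library 4 members were higher: Elovl4 at 1.47, Elovl5 at 1.17, Far1 at 0.85 and Awat1 at 0.72. The direction of Awat1 and Far1 between CIA and CIA+VFX therefore depended on whether these 86 cells were counted.

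**Figure D4:**
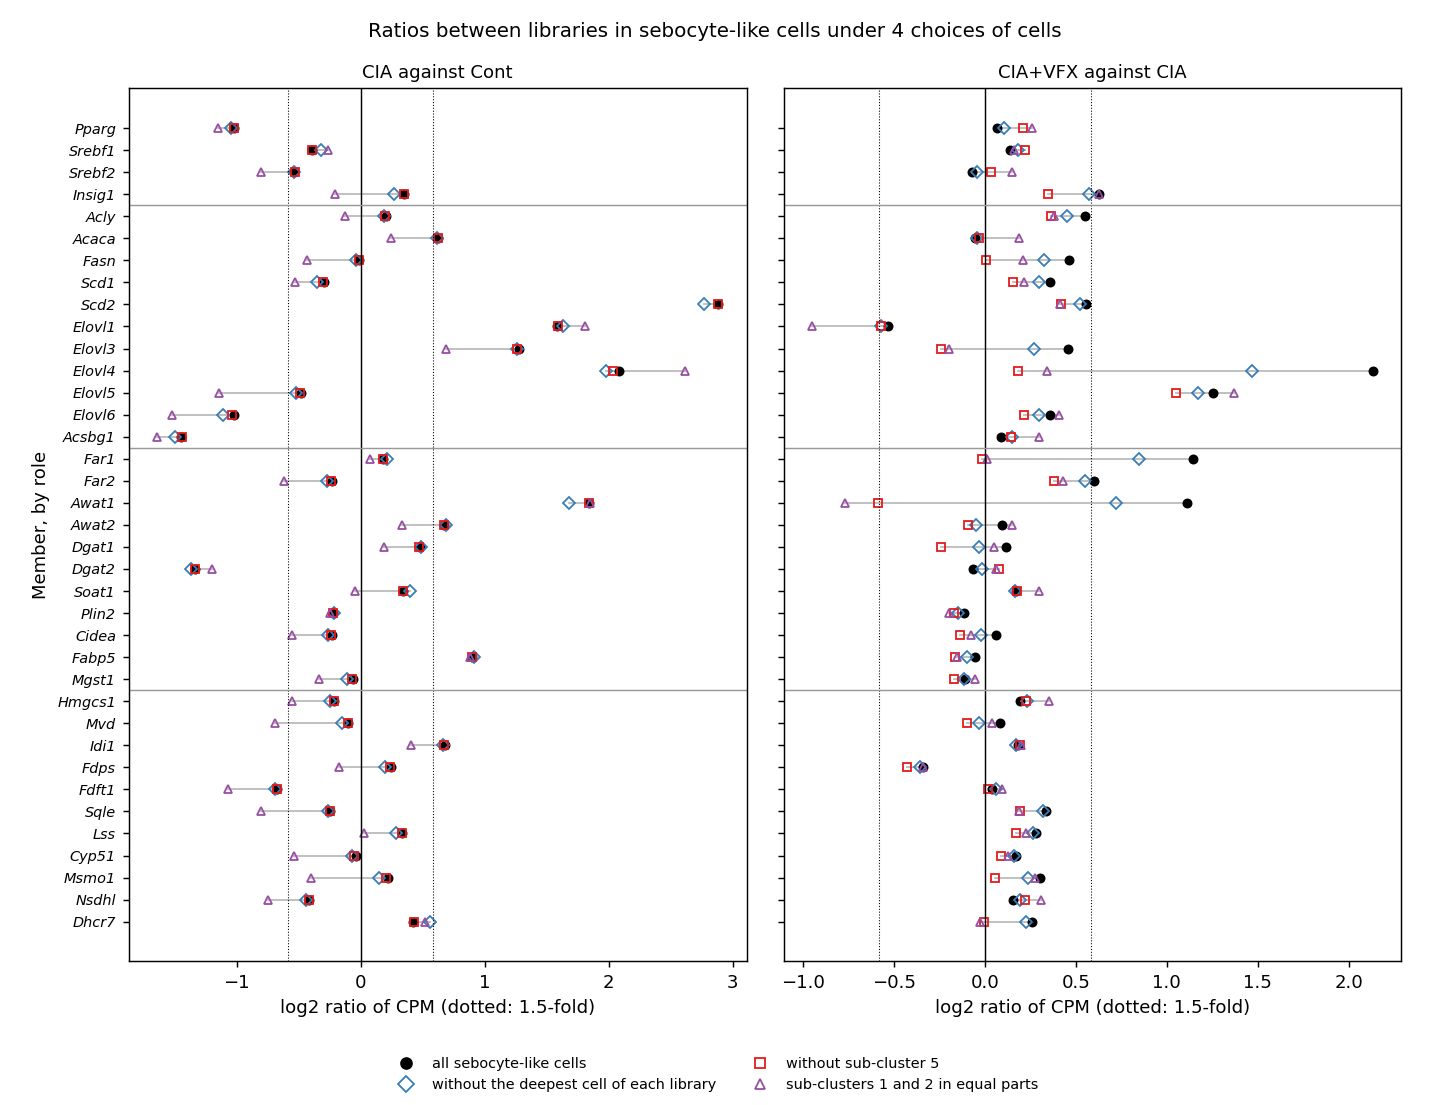
Log2 ratio of CPM for 37 measured members in CIA against Cont (left) and CIA+VFX against CIA (right), for all sebocyte-like cells, without the deepest cell of each library, without sub-cluster 5, and in sub-clusters 1 and 2 weighted equally (left out where either library had under 10 UMIs in them). On the right Elovl4 spans 0.18 to 2.14 while Elovl5 stays above 1; on the left Pparg stays between -1.15 and -1.02 and Fabp5 between 0.88 and 0.92.

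Sub-clusters 1 and 2 were the only ones with at least 15 cells of both Cont and CIA and a median depth above that of sub-cluster 4, so CIA and Cont were compared within each. Sub-cluster 1 had 38 Cont and 35 CIA cells, and sub-cluster 2 had 23 and 33. In sub-cluster 1 Pparg was at 412 CPM in Cont and 190 in CIA, and in sub-cluster 2 at 487 and 215. Acsbg1 was at 913 and 290 CPM in sub-cluster 1 and at 814 and 263 in sub-cluster 2. Elovl6 was at 2964 and 1519 CPM, then 8268 and 2387. Fdft1 was at 476 and 243, then 773 and 352.
All 4 genes were therefore at least 1.5-fold lower in CIA within both sub-clusters, as they were over all sebocyte-like cells. Fabp5 was higher in CIA within both, at 10466 CPM in Cont and 20289 in CIA in sub-cluster 1 and at 17158 and 30607 in sub-cluster 2. With both weighted equally, 11 members were lower in CIA than in Cont in place of 5, and the median of the sterol synthesis genes was -0.53 in place of -0.038. For CIA+VFX against CIA, Elovl5 was at 602 against 186 CPM in sub-cluster 1, at 446 against 219 in sub-cluster 2 and at 926 against 420 in sub-cluster 6. Levels within sub-clusters 1 and 2 are not given here for Elovl4, Elovl3, Awat1 and Scd2. With the libraries summed, these genes were highest in sub-cluster 5 and next in sub-cluster 6. Sub-cluster 6 gave 7.48% of the sebocyte-like UMIs in Cont and 29.0% in CIA. The part of that difference in their ratios was not tested.

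Genes of the same pathways outside the members were read from lists put together by hand, and the counts below stand beside the 12.1% higher and 17% lower of all genes in CIA against Cont. Of 10 other sterol enzymes measured in CIA against Cont, 2 were higher, Ebp at 104 CPM in Cont and 177 in CIA and Mvk at 69.0 and 106, and 1, Ggps1, was lower. Of 8 genes of SREBP handling and sterol uptake, 0 were higher and 2 lower, including Npc1, which moves cholesterol out of lysosomes, at 178 and 61.9 CPM. Of 14 other fatty acid enzymes 3 were higher and 3 lower. Elovl7, another elongase, was at 9.06 CPM in Cont, 32.1 in CIA and 75.3 in CIA+VFX, Acsl1 at 31.3, 105 and 118, and Scd3, a close copy of Scd1, at 128, 359 and 396.
Of 10 other glyceride, wax and droplet genes 4 were higher and 1 lower. The carrier Fabp4 was at 5.57, 89.1 and 33.4 CPM and the droplet protein Cidec at 8.36, 34.1 and 43.7. In Cont, Elovl7, Fabp4 and Cidec rest on 13, 8 and 12 UMIs. Elovl7 was among the leading genes of sub-cluster 5, and Scd3 and Fabp4 among those of sub-cluster 6. Dissociation and immediate early genes, which can respond to handling of the tissue, were lower in CIA for 7 of 13, with Atf3 at 547 CPM in Cont and 124 in CIA. Basal and cycling keratinocyte genes were higher for 4 of 9, with Mki67 at 14.6 and 66.5 CPM, and lower for 1, Col17a1, at 57.1 and 31.8 CPM. Of 3 measured wound and stress keratinocyte genes 2 were higher and 0 lower, with S100a8 at 4.18 and 16.7 CPM and Krt17 at 82.9 and 328. S100a8 rests on 6 UMIs in Cont and 51 in CIA. It was also a leading gene of the neutrophil-like cluster, which held 24 Cont and 183 CIA cells. The part of RNA from those cells was not tested. Of 3 measured genes of liver X receptors and sterol efflux 0 were higher and 2 lower, Rxra at 68.3 and 35.4 CPM and Abca1 at 673 and 406. The part of any of these lists in the ratios of the members was not tested.

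In several classes outside sebocyte-like cells many sterol synthesis genes were higher in CIA than in Cont. Over the 30 other classes there were 209 pairs of a class and a measured sterol gene, of which 80 were at least 1.5-fold higher and 5 lower, or 38.3% and 2.39%. Over all genes in the same classes 12.7% of pairs were higher and 8.43% lower. Fatty acid genes had 32 of 212 pairs higher, 15.1%, and wax, glyceride and droplet genes 40 of 165, 24.2%. In CIA+VFX against CIA the sterol genes had 12 of 225 pairs higher and 9 lower, 5.33% and 4%, where all genes had 5.34% and 4.96%. Against Cont, CIA+VFX had 88 of 216 sterol pairs higher, 40.7%, where all genes had 10.9%; that comparison shares Cont with the first. Pairs of 1 library are not independent of each other. The difference between sebocyte-like cells and the other classes was not tested.

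**Figure D5:**
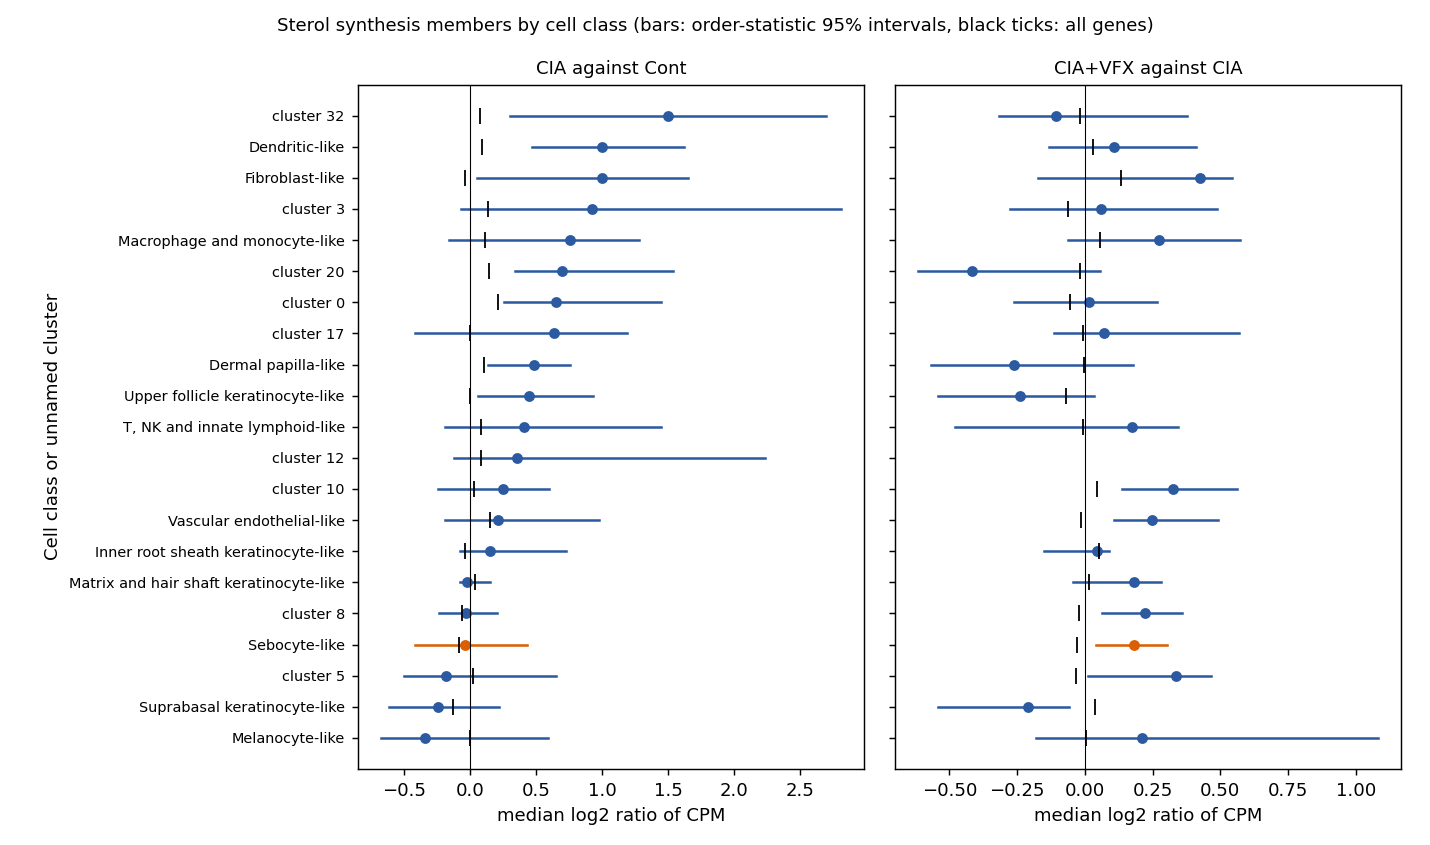
Median log2 ratio of CPM over the sterol synthesis members in each class with at least 6 of them measured, CIA against Cont (left) and CIA+VFX against CIA (right); bars are order-statistic 95% intervals over genes, black ticks the median of all genes of that class, orange the sebocyte-like cells. On the left dendritic-like and fibroblast-like cells and cluster 32 are near 1 or above, and sebocyte-like, matrix and suprabasal keratinocyte-like cells are near 0 or below.

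In fibroblast-like cells 7 of 10 measured sterol genes were higher in CIA and 0 lower, where 6.42% of all genes were higher and 10.5% lower. Msmo1, a sterol oxidase, was at 6.83 CPM in Cont, 24.2 in CIA and 24.9 in CIA+VFX, and Idi1 at 7.69, 22.8 and 30.6. Cyp51 was at 9.21, 24.6 and 27.4 CPM. The sterol genes summed were at 97.4 CPM in Cont and 269 in CIA in cluster 14, at 92.5 and 167 in cluster 18 and at 137 and 170 in cluster 2, the 3 fibroblast-like clusters with at least 50 cells in each library. The log2 ratio of the sum was 1.47 in cluster 14, 0.85 in cluster 18 and 0.32 in cluster 2. Cluster 2 held 310 of the Cont cells and 953 of the CIA cells, so the class changed in makeup. The part of makeup in the ratios of the class was not tested.
In dendritic-like cells 8 of 10 were higher and 0 lower, where 16.4% of all genes were higher and 8.74% lower. Fdps was at 16.5, 63.8 and 70.6 CPM there, and Cyp51 at 27.2, 63.8 and 58.2. In T, NK and innate lymphoid-like cells 4 of 10 were higher, where 14.5% of all genes were. Idi1 was at 21.5 CPM in Cont, 58.7 in CIA and 40.4 in CIA+VFX, and Fdps at 15.6, 45.4 and 32.5. In macrophage and monocyte-like cells 6 of 11 were higher, where 19.9% of all genes were, with Idi1 at 4.82, 11.9 and 17.3 CPM. Of their clusters, cluster 4, led by Chil3 and Ly6c2, held 116 Cont and 966 CIA cells.

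Dermal papilla-like cells, cluster 32 and some keratinocyte clusters had the same direction, and other clusters were near level. The sterol genes summed were at 354 CPM in Cont and 359 in CIA in cluster 10, led by Tnn and Mgp. In unnamed keratinocyte clusters 5 and 8 they were at 554 and 502 CPM, and at 574 and 596. Of the dermal papilla-like clusters, cluster 7 was at 283 and 410 CPM and cluster 41 at 343 and 351. In dermal papilla-like cells 5 of 12 sterol genes were higher in CIA, where 8.5% of all genes were. Msmo1 was at 17.5, 43.9 and 36.7 CPM and Fdps at 34.8, 58.9 and 39.8, so that Fdps in CIA+VFX lay nearer to Cont. In cluster 32, led by Postn, Cdkn1c and Adam12, 6 of 8 were higher, where 16.6% of all genes were, and Msmo1 was at 9.60, 62.2 and 49.9 CPM on 12, 174 and 110 UMIs. In cluster 20, unnamed keratinocytes led by Nppc and Adamts19, 8 of 11 were higher, where 18.1% of all genes were, with Fdps at 12.4, 53.3 and 36.9 CPM. Upper follicle keratinocyte-like cells had 6 of 12 higher, where 15.5% of all genes were.
Matrix and hair shaft keratinocyte-like cells had 0 of 12 higher and 0 lower, where 6.52% and 3.92% of all genes were. Suprabasal keratinocyte-like cells had 0 of 11 higher and 2 lower, where 14.6% and 24.3% of all genes were. Melanocyte-like cells had 1 of 7 higher and 2 lower, where 12.8% and 14.6% were. Taking away 5% of free RNA with the profile of the whole library left the median sterol ratio of fibroblast-like cells at 1.402 in place of 0.99, and that of dendritic-like cells at 1.26 in place of 0.999. Without removal of doublets these medians were 0.66 and 0.78.

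The lipid carrier Fabp5 was also higher in CIA in keratinocytes of the surface and upper follicle. In suprabasal keratinocyte-like cells it was at 1285 CPM in Cont, 7588 in CIA and 4447 in CIA+VFX, a log2 ratio of 2.56 (2.49 to 2.63) in CIA against Cont. In upper follicle keratinocyte-like cells it was at 753, 2433 and 2458 CPM, and Plin2 at 43.5 CPM in Cont and 141 in CIA. In cluster 0 Fads2 was at 10.96 CPM in Cont, 62.9 in CIA and 33.9 in CIA+VFX. Melanocyte-like cells had lower Scd2, at 185, 89.6 and 191 CPM, and lower Acaca, at 350 CPM in Cont and 193 in CIA.
Scd1 had a low level outside sebocyte-like cells that differed between the libraries in many classes at once. In T, NK and innate lymphoid-like cells Scd1 was at 4.31, 11.8 and 27.4 CPM, in macrophage and monocyte-like cells at 8.64, 13.5 and 22.6, and in vascular endothelial-like cells at 13.1, 13.3 and 23.9. Over all kept cells of a library Scd1 was at 119, 186 and 370 CPM, of which sebocyte-like cells gave 61.4% in Cont and 80.3% in CIA+VFX. With 5% of free RNA taken away, the log2 ratio of Scd1 in macrophage and monocyte-like cells in CIA+VFX against CIA was -0.045 in place of 0.74. The part of free RNA in the other low Scd1 levels was not tested.

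Single sebocyte-like cells varied together across the pathways. In cells thinned to 2000 UMIs, the summed UMIs of sterol and fatty acid genes had a Spearman correlation of 0.83 over 65 Cont cells, 0.83 over 144 CIA cells and 0.77 over 242 CIA+VFX cells. Fatty acid with wax, glyceride and droplet genes gave 0.86, 0.71 and 0.68. Regulators with sterol genes gave -0.14, 0.06 and 0.16, with a median of 1 or 2 regulator UMIs per cell. Cells of a library share its depth and preparation, so these values are descriptions.
Over 93 points, 31 classes in 3 libraries, the genes outside the set whose log2(CPM + 1) was most like that of the summed sterol genes included Skic8, Psph, Acot1 and Hacd2, with Pearson r of 0.84, 0.82, 0.82 and 0.81. Most like the wax, glyceride and droplet genes were Tkt, Psph, Tmem97, Psat1 and Fgfbp1, with r of 0.80, 0.78, 0.76, 0.75 and 0.75. The points of a class share their cells' depth and the sebocyte-like points lie far from the rest.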

How the data were processed

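Single cells of dorsal skin were measured with a droplet 3' assay, 1 pooled library for each of 3 groups. The authors deposited UMI counts per gene and barcode, made with Cell Ranger 8.0.1 on GRCm39, per the submitters' processing notes, which also name FastQC 0.11.7. How reads that match several genes were counted is not given in the sources used here, so near-identical copies (Scd1 to Scd4, Fabp5) are uncertain. The members and all gene lists were chosen with earlier results of these data known.

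Barcodes under 500 genes or over 15% mitochondrial UMIs were dropped. Simulated doublets (2 per cell) gave each cell a score over 30 neighbours, and the top 0.4% per 1000 barcodes were taken out. Cells were clustered on 2000 variable genes without the members (40 components, 20 neighbours, Leiden resolution 1.5), giving 60 clusters, of which 40 were named by marker scores with thresholds set after the clusters were seen. UMIs were summed per class and library and divided by total UMIs. Log2 ratios have exact conditional binomial 95% intervals, levels exact Poisson ones, and list medians order-statistic ones. A gene with 0 counts has a floor of 3 counts. With 1 library a group no test was possible, and no p-value is given. Members named with values in sebocyte-like cells are the 3 highest of each role and those at least 1.5-fold apart in any comparison; of other lists, at most 3 by size. Srebf1, Fasn, Plin2, Cidea and Msmo1 fall outside this rule and were added after their values were seen. Examples in other classes, sub-clusters and single deep cells were singled out after their values were seen. On simulated Poisson counts, genes changed 2-fold were called in the true direction in 93.9% of cases in CIA against Cont, 99.0% in CIA+VFX against CIA and 96.9% in CIA+VFX against Cont, and unchanged genes were called in 3.82%, 2.49% and 4.90% (7464, 8945 and 8558 genes). The simulation held counting error only, with no spread between cells, sub-clusters or mice. Its rates therefore do not give the error of the calls in the real libraries. Python 3.11.15, NumPy 2.4.6, SciPy 1.17.1, pandas 2.3.3, scikit-learn 1.9.0, python-igraph 0.11.9, leidenalg 0.10.2, matplotlib 3.10.9, R 4.3.3 and edgeR 4.0.16 (for TMM factors) were used. Of the genes most like the sterol synthesis members, 1 is not reported here.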

Additional observations from a re-analysis of the deposited data

How the results depend on the processing

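No paired analysis was possible because each group has 1 library. Of 285 alternative values for counts and role medians in sebocyte-like cells, 258 stayed within 1.5 times the count or within the spread, and 27 moved. Settings that leave out sub-clusters or the deepest cell, use sub-clusters 1 and 2 in equal parts, or add cluster 44 were chosen after seeing the data. The count of members lower in CIA than in Cont, 5, was 8 at Leiden resolution 0.8, 3 in cells thinned to 2000 UMIs, 11 in sub-clusters 1 and 2 and 8 with cluster 44 added. The sterol median was -0.53 in sub-clusters 1 and 2. In CIA+VFX against CIA the count higher, 6, was 12 in thinned cells, 11 as a mean over cells, 1 without sub-cluster 5, 1 without sub-clusters 3, 4 and 5, and 2 in sub-clusters 1 and 2. The count lower, 0, was 1 with a stricter filter on cells, 1 at resolution 2.5, 1 with members kept in clustering, 1 without sub-cluster 5, 1 without sub-cluster 4, 2 without sub-clusters 3, 4 and 5, and 2 in sub-clusters 1 and 2. The sterol median was 0.35 in thinned cells, and the wax, glyceride and droplet median was -0.14 without sub-cluster 5 and -0.16 without sub-clusters 3, 4 and 5. In CIA+VFX against Cont the count lower, 6, was 3 with median-of-ratios scaling, 3 with TMM and 3 in thinned cells. The count higher, 15, was 9 without sub-cluster 5, 9 without sub-clusters 3, 4 and 5, and 6 in sub-clusters 1 and 2, where the sterol median was -0.41. In CIA+VFX against CIA, Far1 reversed to -0.018 without sub-cluster 5, and Awat1 to -0.59 without it, -0.66 without sub-clusters 3, 4 and 5 and -0.77 in sub-clusters 1 and 2. Mgst1 in suprabasal keratinocyte-like cells was -0.16 in CIA against Cont under a marker gate. In CIA+VFX against CIA, Dhcr7 in matrix and hair shaft keratinocyte-like cells was -0.075 and Cyp51 in dermal papilla-like cells 0.10 in thinned cells, and Scd1 in macrophage and monocyte-like cells was -0.045 with free RNA subtracted. Beyond what leaving out cells does by construction, the cause was not tested. Sc5d, Fads1 and Fads2 have too few UMIs in sebocyte-like cells for a ratio.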
